A study of Homo sapiens with 6 samples.

Results

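miR-22 is a conserved miRNA whose hairpin gives rise to hsa-miR-22-3p and hsa-miR-22-5p, here called miR-22-3p and miR-22-5p or the 3p and 5p arms. Both arms, 2 of the 2588 mature miRNAs listed in the count tables, were taken by name and followed through every library. The libraries were made from the human lung adenocarcinoma line A549 with a doxycycline-inducible shRNA against METTL1, a methyltransferase that places N7-methylguanosine (m7G) in RNA. All cells carried the knockdown and were collected on day 5 of doxycycline at 200 ng/ml. There were 2 groups of 3 libraries, total RNA (the input) and RNA recovered with an anti-m7G antibody (m7G-RIP). The knockdown was by a lentiviral shRNA in a selected cell population, and nothing in the labels says whether replicates came from separate cultures, so p-values measure the spread between these libraries. How much RNA the antibody recovered is unknown, hence each ratio compares a miRNA with the rest of its library. Libraries from METTL1-proficient cells or with a control IgG were not analysed here, so none of the values measures an effect of METTL1.

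A miRNA hairpin is cut by DROSHA and DICER1 into a short duplex. Usually a single strand, the guide, is kept by an Argonaute protein and pairs through its seed (bases 2 to 8) with target mRNAs, while the passenger strand is lost. miR-22-3p is the guide of this hairpin in most tissues. It is known for repressing the DNA demethylase TET2, and it has been described both as a brake on and as a driver of tumour growth, depending on the tissue.

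The mature sequences show how different the arms are, and are printed 5′ to 3′ with the seed in capitals (RefSeq, GRCh38.p14).
miR-22-3p: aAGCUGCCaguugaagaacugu
miR-22-5p: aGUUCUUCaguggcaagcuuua
The 3p arm lies at chr17:1713914-1713935 and the 5p arm at chr17:1713952-1713973, both on the minus strand. The MIR22 hairpin gene spans chr17:1713903-1713987 (GENCODE, GRCh38), and its whole length falls within an exon of 30 of the 32 annotated transcripts of its host lncRNA, MIR22HG. Each arm comes from a single hairpin and is 22 bases long. The arms were compared as read counts, and how readily each sequence enters a library was not measured. No other miRNA of the RefSeq table had the seed of either arm (0 for each).

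The libraries held from 9155690 to 10753443 counts in total RNA and from 2649238 to 3106556 in m7G-RIP. The culture text of the m7G-RIP samples names Caco-2, an intestinal line, whereas their titles and cell line labels name A549. The 3 miRNAs typical of intestinal epithelium (miR-192-5p, miR-194-5p and miR-215-5p) summed to between 17936 and 18199 CPM, counts scaled to a common library total, in total RNA and to between 3571 and 3725 CPM in m7G-RIP, and had counts in all 6 libraries. Most of that sum was miR-192-5p, at 17545 to 17704 CPM in total RNA and 3445 to 3582 CPM in m7G-RIP. The 6 epithelial markers of the miR-200 family and miR-205-5p summed to between 439 and 462 CPM in total RNA and to between 261 and 326 CPM in m7G-RIP. Most of this was miR-200b-3p, at 346 to 357 and 157 to 186 CPM, whereas miR-200c-3p was at 65.7 to 76.9 and 91.7 to 131 CPM. Up to 3 of the 6 were at 0 in a library. Of 7 blood-cell miRNAs, at most 1 had any count in a library, and miR-223-3p and miR-144-3p were at 0 throughout. These lists do not tell A549 from Caco-2. A level in such bulk RNA does not separate the number of cells making a miRNA from its amount per cell. Differences between the groups set recovered RNA against input RNA. The groups were also deposited as separate sets of counts, and they differ in depth. A difference in preparation or sequencing between the sets cannot be told apart from recovery.

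miR-22-3p was abundant in total RNA and lower in m7G-RIP. It had 40168, 37261 and 29278 counts in total RNA replicates 1, 2 and 3, and 3359, 3873 and 3113 counts in the m7G-RIP replicates. Scaled for library composition (TMM-scaled CPM), its levels were 4533, 4429 and 3850 in total RNA and 989, 1216 and 833 in m7G-RIP. Every m7G-RIP library lay well below every total RNA library. The mean fell from 4270 ± 368 to 1013 ± 192 CPM (SD, n = 3). The log2 ratio of m7G-RIP over total RNA was -2.08 (SE 0.15, edgeR quasi-likelihood test, adjusted p 4.69e-06), a level 4.22-fold lower with a 95% interval from 3.32 to 5.36. Among the 620 miRNAs tested, 29.2% were called lower and 23.5% higher, and 36.5% had all m7G-RIP libraries below all total RNA libraries. In the opposite direction, 29.5% had all m7G-RIP libraries above. The call of miR-22-3p was thus a common one, and its log2 ratio was the 124th lowest of the 620.

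miR-22-5p was scarce in both groups and no difference in its level passed the test. It had 537, 458 and 273 counts in total RNA and 64, 172 and 144 in m7G-RIP. The corresponding levels were 60.6, 54.4 and 35.9 TMM-scaled CPM in total RNA and 18.9, 54.0 and 38.5 in m7G-RIP, so that the groups overlapped, with m7G-RIP replicate 1 the lowest and replicates 2 and 3 within the range of total RNA. The means were 50.3 ± 12.9 and 37.1 ± 17.6 CPM (SD, n = 3). The log2 ratio was -0.44 (SE 0.39, edgeR adjusted p 0.366), and its 95% interval from -1.31 to 0.44 leaves room for a level up to 2.49-fold lower as well as for a small gain. Without any scaling beyond library size the log2 ratio was 0.095, so the sign of this small value depends on the scaling.

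**Figure D1:**
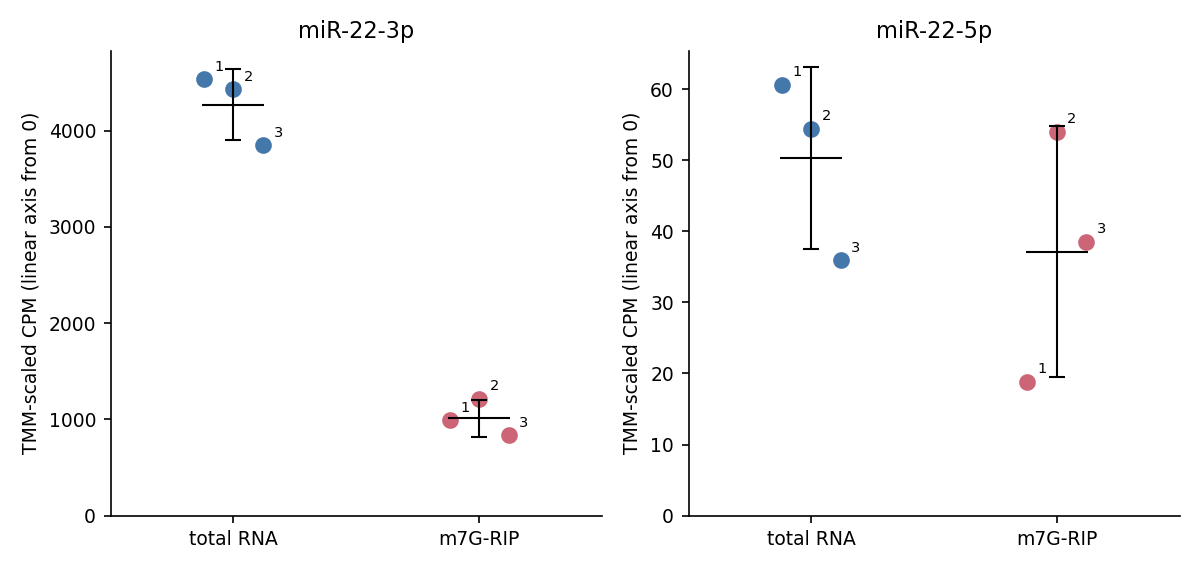
TMM-scaled CPM (linear axes from 0, of different height) of miR-22-3p and miR-22-5p in each library, with replicate numbers beside the points and black marks for the mean ± SD of 3 libraries. The 3 m7G-RIP libraries of the 3p arm sit between 833 and 1216 CPM, under the lowest total RNA library at 3850, whereas the points of the 5p arm overlap.

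In the order of abundance, the 3p arm moved down and the 5p arm did not move beyond its spread. miR-22-3p ranked 26, 26 and 30 of all listed miRNAs in total RNA, and 46, 45 and 54 in m7G-RIP. The mean rank rose in number by 21 places, for which the exact permutation test (two-sided) gave p = 0.1, the lower limit with 3 libraries in each group. Its share of counts was 0.352% ± 0.0285 in total RNA and 0.122% ± 0.0203 in m7G-RIP (SD, n = 3, exact permutation p = 0.1). miR-22-5p ranked 199, 206 and 235 in total RNA and 263, 192 and 218 in m7G-RIP, and the ranks of the groups overlapped (exact permutation p = 0.7). Its share of counts was 0.00415% ± 0.00104 in total RNA and 0.00443% ± 0.00191 in m7G-RIP (SD, n = 3, exact permutation p = 0.9). Together with the arm ratio below these were 5 measures, and the p of 0.1 became 0.167 after Benjamini-Hochberg adjustment over them.

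The neighbours in the order of mean level were not separable from miR-22. In total RNA, miR-22-3p at 4270 CPM stood between miR-1307-3p at 4451 ± 431 and miR-125b-5p at 4264 ± 239 CPM (SD, n = 3). In m7G-RIP it stood between let-7c-5p at 1103 ± 9.61 and miR-30a-5p at 1010 ± 184 CPM (SD, n = 3). The ranges of miR-22-3p and each of these neighbours overlapped. The 5p arm had miR-215-5p and miR-4444 beside it in total RNA and miR-483-5p and miR-149-3p beside it in m7G-RIP, again with overlapping ranges.

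**Figure D2:**
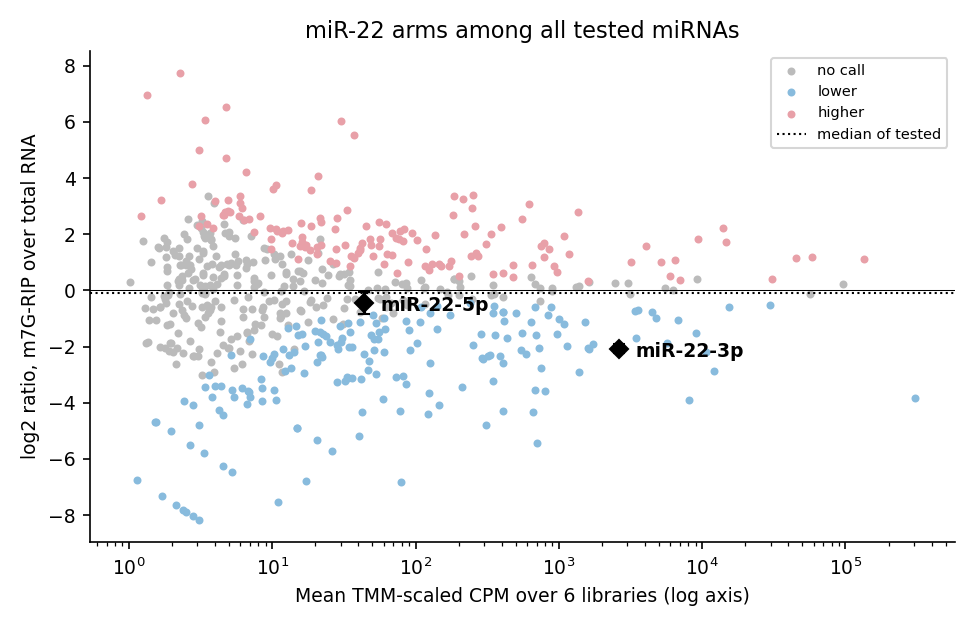
Log2 ratio of m7G-RIP over total RNA against the mean TMM-scaled CPM over 6 libraries (log axis) for the 620 miRNAs tested, coloured by call at an edgeR adjusted p under 0.05, with the SE of both miR-22 arms and a dotted line at the median of the tested miRNAs. miR-22-3p lies at -2.08 among the called lower miRNAs of high abundance, and miR-22-5p at -0.44 lies among those without a call.

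The balance of the arms, which needs no scaling between libraries, shifted toward the 5p arm in m7G-RIP. In total RNA there were 74.8, 81.4 and 107 reads of the 3p arm for each read of the 5p arm in replicates 1, 2 and 3. In m7G-RIP there were 52.5, 22.5 and 21.6. All m7G-RIP libraries lay below all total RNA libraries, with m7G-RIP replicate 1 nearest to them. Of the miR-22 counts, the 5p arm made up 1.32% (95% Wilson interval 1.21 to 1.43), 1.21% (1.11 to 1.33) and 0.924% (0.821 to 1.04) in total RNA replicates 1, 2 and 3. In m7G-RIP replicate 1 it made up 1.87% (1.47 to 2.38), in replicate 2 4.25% (3.67 to 4.92) and in replicate 3 4.42% (3.77 to 5.18). These intervals treat each read as an independent molecule, which PCR reads without molecular identifiers are not. They may thus be too narrow even for counting error, and they leave out the spread between libraries. The difference between m7G-RIP replicates exceeded them. The 3p arm thus remained the major arm in all 6 libraries.

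**Figure D3:**
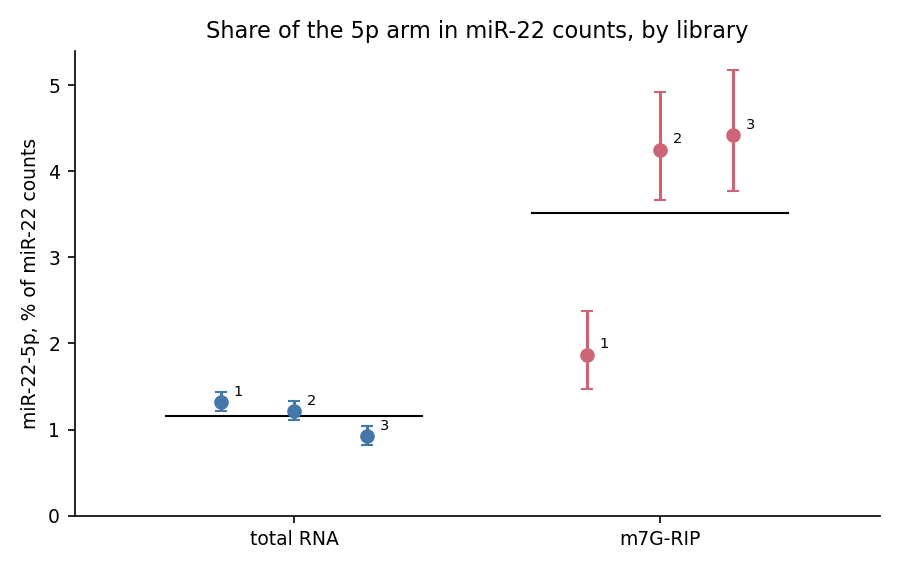
Percentage of miR-22 counts that came from the 5p arm in each library, with replicate numbers and a line at the mean of each group (axis from 0). The 95% Wilson intervals treat reads as independent. The total RNA libraries lie between 0.924% and 1.32% and the m7G-RIP libraries between 1.87% and 4.42%, with m7G-RIP replicate 1 apart from the other two.

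The mean log2 ratio of 3p over 5p reads was 6.44 ± 0.27 in total RNA and 4.87 ± 0.72 in m7G-RIP (SD, n = 3), a difference of -1.56 (exact permutation test, two-sided, p = 0.1, again the lower limit). A fit over all hairpins with both arms tested, chosen after the data were seen, gave a shift of -1.58 (SE 0.39, 95% interval -2.50 to -0.66, edgeR quasi-likelihood test, adjusted p 0.0174). That call was lost without total RNA replicate 2 (adjusted p 0.0579), without total RNA replicate 3 (0.0688) or without m7G-RIP replicate 2 (0.0566), with shifts of -1.62, -1.43 and -1.39. Leaving out m7G-RIP replicate 1 gave the largest shift, at -1.97 (adjusted p 0.00184).

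A shift of this size was common among hairpins. Of 139 hairpins with both arms tested, 23.7% were called as shifted toward the 5p arm and 17.3% toward the 3p arm, and in 33.1% the ratio of all m7G-RIP libraries lay below that of all total RNA libraries, with the opposite in 24.5%. Arms were paired by name, so the 139 are not all independent. For example, miR-365a-3p and miR-365b-3p had identical values. Within a hairpin, both arms of miR-625 had the same mean level in total RNA. The arms of miR-4717 had the same log2 ratio of -0.59. The arm ratio changes of these hairpins were 0.0022 and 0. Whether the same reads were counted for both arms was not tested. The change of miR-22 was the 46th lowest of the 139, whose median was -0.40 and whose range ran from -5.77 to 5.79. In total RNA the bias of miR-22 toward the 3p arm was the 8th strongest of the 139, and in m7G-RIP it was the 26th. These places are a description, with no test. The hairpins with the nearest change were miR-25 at -1.63, miR-181a at -1.48 and miR-1247 at -1.48. In the comparison with total RNA, the 5p arms of miR-25 and miR-1247 had positive log2 ratios, whereas that of miR-22 was -0.44 and not called. For miR-25, of the miR-106b cluster, the log2 ratio was 1.48 for the 5p arm and -0.14 for the 3p arm, and for miR-1247 it was 2.38 and 0.87. For miR-181a both were negative, as for miR-22, at -3.57 and -4.30, and its libraries overlapped in arm ratio.

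**Figure D4:**
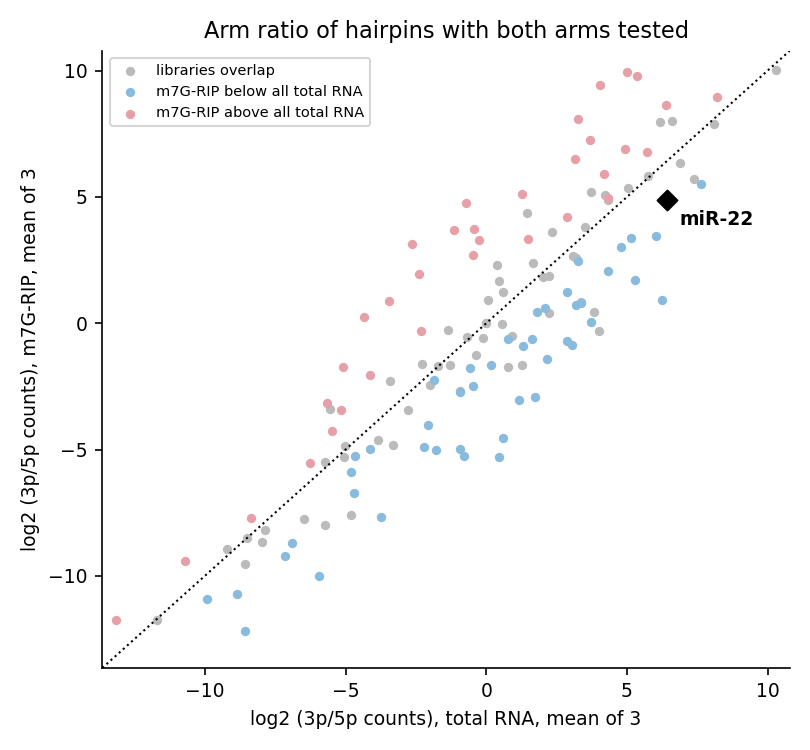
Mean log2 ratio of 3p over 5p counts in m7G-RIP against that in total RNA for 139 hairpins, coloured by whether the libraries of the groups overlap, with a dotted line of equality. miR-22, at 6.44 and 4.87, lies below the line, in a band that holds many other hairpins.

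m7G can form only on guanines. The study looked at the base composition of primary hairpins, whereas here the mature arms were scored, so hairpin sequence outside the arms did not enter. miR-22-3p has 6 guanines (27.3% of its bases), none adjacent to another. miR-22-5p has 5 guanines (22.7%), with a single GG pair. The G-score, which weights runs of G and subtracts runs of C and is the highest mean over a window of 20 bases, was 0 for the 3p arm and 0.15 for the 5p arm. Of the 620 tested miRNAs 557 (89.8%) had a sequence, and their median G content was 27.8% and their median G-score 0.15, so both arms were near or below the middle. Among the 557, 28% were called lower and 24.2% higher. In the 140 without GG, to which the 3p arm belongs, 37.1% were lower and 12.1% higher. In the 417 with GG, to which the 5p arm belongs, the shares were 24.9% and 28.3%. Of the 82 with 5 guanines, as the 5p arm has, 36.6% were lower and 14.6% higher (median log2 ratio -0.72). Of the 64 with 6 guanines, as the 3p arm has, the shares were 34.4% and 10.9% (median -0.36). The split by GG and the split by number of guanines thus placed the 5p arm differently. These are counts over miRNAs, which share loci and families, and no test was made.

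The miRNAs whose levels over the 6 libraries were most like those of miR-22-3p were miR-224-5p, miR-221-3p and miR-99a-5p. Their distances from it in log2 CPM were 1.39, 1.44 and 1.74 and their log2 ratios -1.68, -1.90 and -2.07, each called lower (edgeR adjusted p 2.3e-06, 2.75e-06 and 5.77e-06). Likeness was taken over these same 6 libraries, so log2 ratios near that of the miR-22 arm follow from the choice. miR-421, miR-340-3p and miR-342-3p were most like miR-22-5p, at distances of 0.83, 1.08 and 1.13. None of them was called. The log2 ratio was -0.31 for miR-421, 0.17 for miR-340-3p and -0.98 for miR-342-3p (edgeR adjusted p 0.359, 0.729 and 0.0692). The signs of miR-421 and miR-340-3p changed with the settings, and miR-342-3p was not stable either. It passed the threshold as lower with DESeq2 (adjusted p 0.0271), with limma-voom (0.0273), with no filter on low counts (3.86e-05), with at least 10 counts in every library (0.0254), without total RNA replicate 3 and without any single m7G-RIP library.

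A list of 10 miRNAs of 17p13, the chromosome band of MIR22, was set beside it, and the list does not hold the whole band. Of the 10, 8 were tested and 2 were lower, against the background of 29.2%. None was higher (0; edgeR at an adjusted p under 0.05), although miR-195-3p and miR-212-3p each passed as higher under 1 alternative. miR-4521, at chr17:8186948-8186969, is not on the list and is named after its values were seen. It was lower, at -1.96 (SE 0.20, edgeR adjusted p 3.85e-05). The median log2 ratio of the 8 tested list members, without miR-4521, was -0.57, against -0.074 over all miRNAs tested. The number called lower was 1 without total RNA replicate 1 or 3, and 4 without m7G-RIP replicate 3. miR-132 and miR-212 share a transcript 336 kb from MIR22 and act in neurons and the vasculature. miR-132-5p was lower, at -1.58 (SE 0.31, edgeR adjusted p 0.00254), whereas miR-132-3p at -0.43 was not called (adjusted p 0.129). miR-212-5p had 163, 96 and 133 counts in total RNA and 1, 0 and 14 in m7G-RIP, which gave a log2 ratio of -3.49 with an SE of 1.04 (edgeR adjusted p 0.0197). This call was lost without total RNA replicate 1 or 3. Without m7G-RIP replicate 3, which leaves counts of 1 and 0, the fitted value was -6.72 (adjusted p 0.000507). The sister arm miR-212-3p had a log2 ratio of 1.21 (adjusted p 0.169), which became 1.15 when each library had to hold at least 10 counts (adjusted p 0.0239). Farther from MIR22, miR-324-5p had 40, 86 and 71 counts in total RNA and 0, 1 and 20 in m7G-RIP, a log2 ratio of -2.05 (adjusted p 0.188) that became -5.75 and past the threshold (adjusted p 0.00475) without m7G-RIP replicate 3. miR-195-3p was at 0.075 (adjusted p 0.798), and at 0.63 with library size alone (adjusted p 0.0470).

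**Figure D5:**
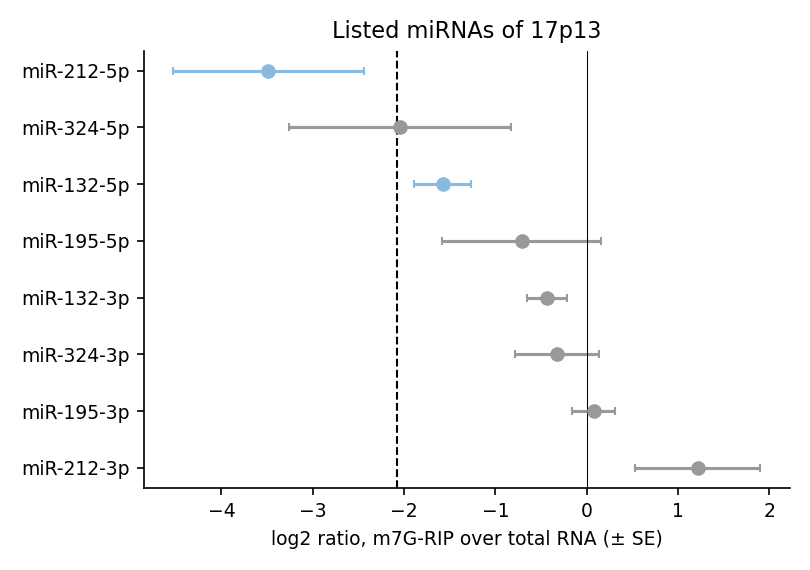
Log2 ratio of m7G-RIP over total RNA (± SE) for the 8 tested members of the 17p13 list, blue for called lower and grey for no call, with a dashed line at miR-22-3p (-2.08). Of the 8 points 2 are blue, miR-212-5p and miR-132-5p.

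Under 14 alternatives the log2 ratio of miR-22-3p stayed between -2.40 and -1.52 and past the threshold. The value nearest 0 was that with library size alone, a scaling that also raised the median of all tested miRNAs by 0.55.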

How the data were processed

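The deposited tables hold unnormalised read counts, per mature miRNA, of 6 small RNA libraries (NEBNext kit). To make them, the authors trimmed adaptors (Trimmomatic), mapped reads to GRCh38 (STAR, end-to-end mode) and counted them over miRBase entries with featureCounts. The submitters' processing notes name Bowtie2 instead. How reads with several alignments were counted is not stated. Groups and replicate numbers came from the titles. The members and lists were chosen with earlier results of these data known, and the miRNAs named follow a rule: both arms, the 3 most alike to each, neighbours in level, the 3 hairpins nearest in arm shift, and the 2 highest and lowest of the 17p13 list (other members of it were named after their values were seen). A further planned list is not reported here.

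All miRNAs were fitted with edgeR 4.0.16 (R 4.3.3; TMM, default filter by group, robust quasi-likelihood F test, Benjamini-Hochberg, threshold 0.05). Arm ratios added 0.5 to each count. Ranks, shares and arm ratios used exact two-sided permutation tests. The prior count of log2 CPM was 2. DESeq2 1.42.0 and limma 3.58.1 were alternatives. The code was tested on simulated data. Replicates differed by more than counting noise (chi-square per degree of freedom from 22.2 to 112) and were kept apart.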

Additional observations from a re-analysis of the deposited data

How the results depend on the processing

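The log2 ratio of miR-22-3p kept its direction and its call in all 14 alternatives. Its rank and share kept their direction in 8 each, where the exact tests cannot pass the threshold. For miR-22-5p no alternative gave a call (adjusted p from 0.0649 to 0.987), but its direction was not stable. The log2 ratio was 0.095 with library size alone, and with each library left out in turn it lay between -0.97 and -0.34. Its difference in rank ran from -8.33 to 27.2 and its difference in share from -0.000621 to 0.00128 percentage points when each library was left out, and the latter was -8.45e-05 with counts without the 10 most abundant miRNAs. The arm ratio difference ran from -1.98 to -1.34 when a library was left out, and passed it only in the edgeR fit over hairpins (-1.58). With at least 10 counts in every library, fewer miRNAs were tested, and 1 of the 17p13 list was lower; the 17p13 count lay between 1 and 4 when a library was left out. Of the other miRNAs named, miR-195-3p was -0.19 and miR-340-3p -0.14 with no filter, and without a library they ran from -0.22 to 0.18 and from -0.38 to 0.28. miR-421 was 0.23 when scaled by library size only and 0.13 when the 10 most abundant were also kept out of that size. The cause of these changes was not tested.

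Libraries of the same replicate number were not treated as pairs, as nothing in the labels says that they share a culture. The protocol of the paper sets part of the RNA aside as input, so pairs are possible. Over the 620 miRNAs tested, deviations from the group means correlated at -0.036, -0.10 and 0.054 for numbers 1, 2 and 3. Over the 306 miRNAs with higher mean counts the values were 0.063, 0.054 and 0.10. With 3 libraries per group neither set of values can decide whether they are pairs. With a replicate block, the log2 ratios were -2.09 for miR-22-3p and -0.51 for miR-22-5p (edgeR adjusted p 3.23e-06 and 0.33), 122 miRNAs were higher and 175 lower, against 146 and 181 without it, and the arm ratio difference of -1.56 had an exact sign-flip p of 0.25, the smallest possible. miR-22-5p had few counts in m7G-RIP, 64, 172 and 144, so its counting error there is larger than that of the 3p arm, although libraries 1 and 2 have similar depth.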
